A study of Mus musculus with 45 samples.

Results

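The 78 nuclear genes described here carry the names of subunits of the mitochondrial respiratory chain and ATP synthase. They were the rows of the count table whose symbols begin with Ndufa, Ndufb, Ndufc, Ndufs or Ndufv and a digit, name Sdha to Sdhd, or begin with Uqcr, Cox4 to Cox8 or Atp5. A gene also needed a CPM (its count scaled to a common library size) of at least 1 in at least 4 of 45 libraries. Of 23420 genes in the table, 84 had such symbols. The other 6 (Ndufa4l2, Ndufs5, Cox4i2, Cox7b2, Cox8b and Cox8c) lay under the CPM minimum. The 78 genes divide into 35 of complex I, 4 of complex II, 8 of complex III, 14 of complex IV and 17 of complex V. Names and roles do not match everywhere. Atp5sl carries an ATP synthase name although it is known as an assembly protein of complex I. Cox7a2l is known for joining complexes III and IV into supercomplexes, and Ndufa4 is now placed with complex IV.

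Complex I (NADH dehydrogenase) and complex II (succinate dehydrogenase) pass electrons to ubiquinone, complex III passes them on to cytochrome c, and complex IV hands them to oxygen. Complexes I, III and IV pump protons, and complex V (ATP synthase) uses the gradient to make ATP. Most subunits are encoded in the nucleus and imported, and the rest by mitochondrial DNA. Regulatory T cells (Tregs), which restrain immune responses, are known to rely more on oxidative metabolism than activated effector T cells do. No symbol of a mitochondrially encoded gene was in the count table, so only nuclear subunits were measured.

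The libraries were made from T cells sorted out of mice with B16 melanoma, a transplantable skin tumour, and form 9 groups of 5. Tregs came from the tumour or from non-draining lymph nodes. The Treg groups were N, HetNrp1def (genotype label Het_Nrp1-), HetWT (genotype label Het_WT) and WT, and effector T cells came from tumours of WT mice. The design text names mice deficient for Nrp1, a membrane co-receptor, as homozygotes and heterozygotes. N was kept apart by its titles because its genotype label reads like that of HetNrp1def. The promoter or Cre behind the deletion is not given in the sources used here. Replicates were labelled 2, 3, 4, ds1 and ds2, and the protocol names single sorting for 3 and double sorting for 2 replicates of 5000 Tregs each. Whether replicates are separate animals is not labelled, and p-values therefore reflect the spread between samples that may be technical repeats.

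Total counts ran from 2945638 to 35787148 (median 10248080), and the 78 genes took 1.16% to 2.36% of them (median 2.03%). In 4 pairs of libraries within a group the counts differed by a chi-square of only 2.5 to 2.8 per degree of freedom, against 72.8 or more in the other 86 pairs. They were ds1 with 4 in HetNrp1def and HetWT tumour Tregs, and 3 with 4 in HetNrp1def and HetWT lymph node Tregs. Each such pair was summed under the number 4, which left 41 samples, with 4 in each HetNrp1def and HetWT group. Number 4 of those tumour groups thus also holds ds1 reads wherever samples 2, 3 and 4 are used below. In tumour Nrp1 had a median of 157 CPM in N and 126 CPM in HetNrp1def Tregs, against 147 CPM in HetWT and 131 CPM in WT Tregs. In lymph node the medians were 187 CPM in N and 151 CPM in HetNrp1def Tregs, against 337 CPM in HetWT and 388 CPM in WT Tregs. The medians of the deficient labels were the lower ones in lymph node but not throughout in tumour. Reads counted over the whole gene cannot show whether a deleted stretch is absent, so this does not check the labels. The 6 Treg markers summed to 3633 to 9496 CPM in tumour Tregs and 1893 to 5337 CPM in lymph node Tregs, against 109 to 280 CPM in effector T cells.

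The level of the respiratory genes followed the replicate number far more than genotype, tissue or cell type. Levels below are CPM scaled by TMM, which corrects for the RNA composition of libraries. Over the 41 samples the summed level of all 78 genes ran from 9751 to 11110 CPM in ds2 samples, and from 23165 to 32202 CPM in ds1 samples. It was 16990 to 24683 CPM in samples numbered 2, 17185 to 29713 CPM in those numbered 3 and 18842 to 21722 CPM in those numbered 4. So every ds2 sample lay below every other sample, whatever its group. Group means sat within that spread, at 17906 ± 4873 CPM in N tumour Tregs and 19136 ± 5733 CPM in WT tumour Tregs (SD, n = 5 each).

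**Figure D1:**
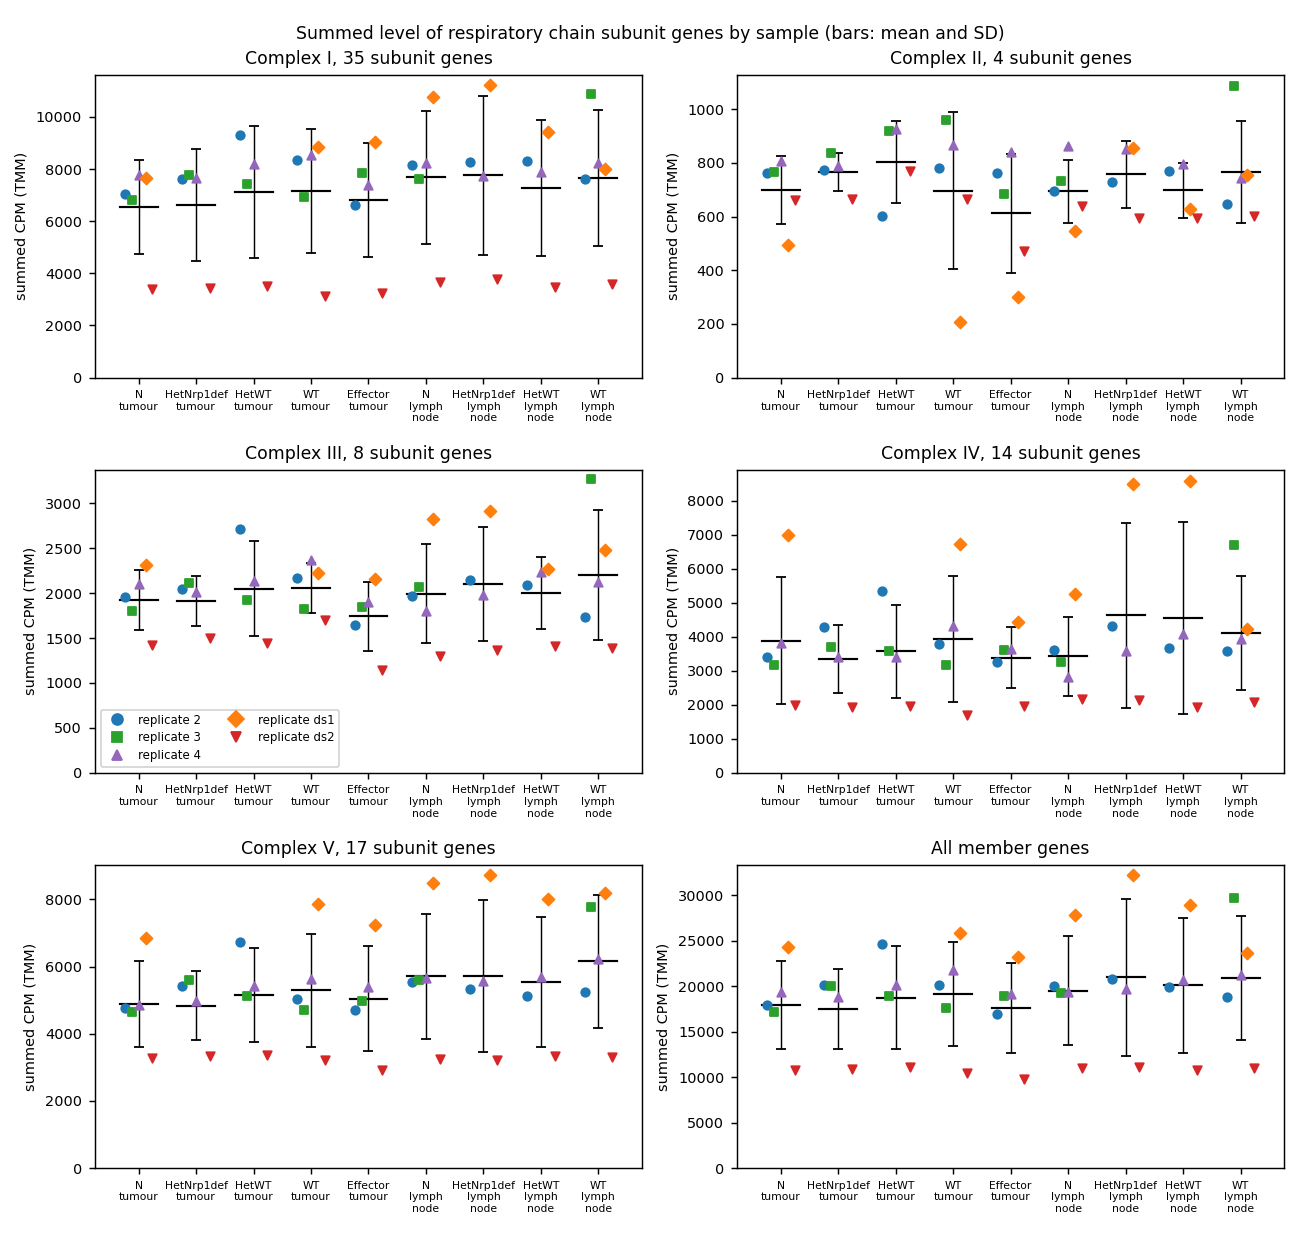
Summed CPM of the subunit genes of each complex and of all 78 genes (y axis) in each of 41 samples by group (x axis), with symbols for the replicate number and bars for mean and SD. The ds2 samples, at 9751 to 11110 CPM for all genes, lie at the bottom of every group.

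Replicate number accounted for a median 49.5% of the variance of log2 CPM in a respiratory gene, against 21.0% over all tested genes, while group accounted for 13.2% against 19.8%. In 62 of 78 genes the number took the larger share, compared with 49.7% of all genes. The first principal component of the 78 genes held 33.1% of their variance, and number explained 92.2% of that component against 1.76% for group. The ds2 libraries were also the shallowest (2945638 to 5408375 counts), and the nuclear RNA Malat1 held 1.70% of counts in the median ds2 library, against 0.513% in the median of all libraries.

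The ds2 loss was largest in short transcripts. Relative to samples 2, 3 and 4, respiratory genes under 1000 nucleotides were at a median log2 difference of -1.13 in ds2 (45 genes), those of 1000 to 1500 at -0.84 (13 genes) and longer ones at -0.60 (20 genes). Over all genes with a mean of at least 10 CPM the matching medians were -0.69, -0.24 and -0.02. The respiratory genes had a median transcript length of 863 nucleotides, against 3026 for those genes. Spearman's rho between length and the ds2 difference was 0.35 over the 78 genes, which share the same libraries. By complex the median ds2 difference was -1.18 for complex I, -0.37 for complex II, -0.60 for complex III, -1.05 for complex IV and -0.68 for complex V. Whether length, depth or sorting sets the ds2 level was not tested.

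**Figure D2:**
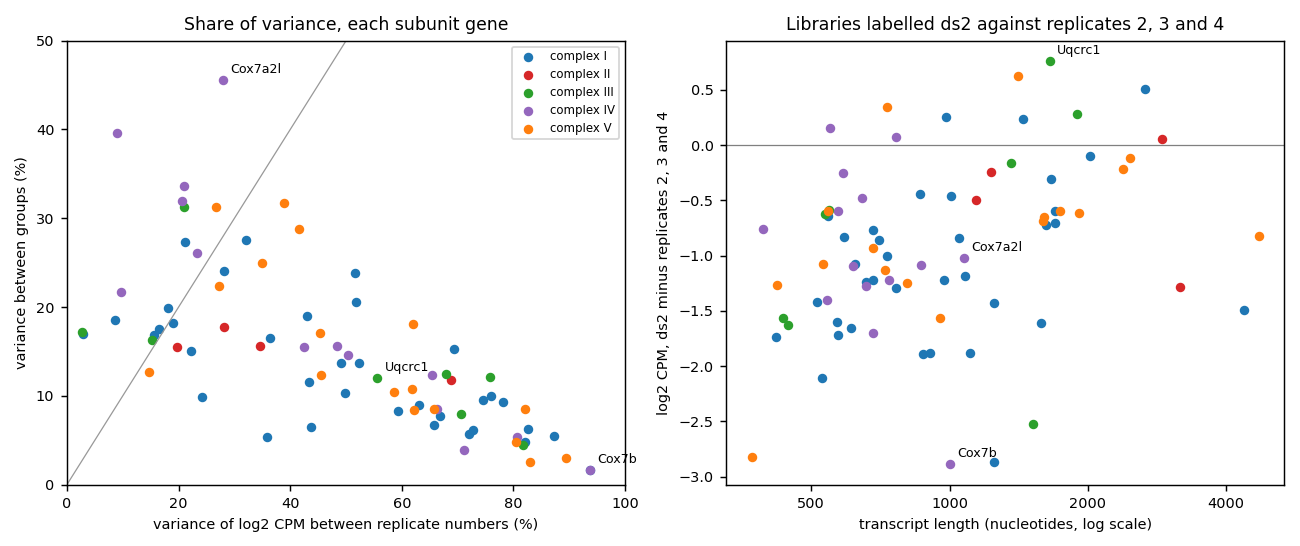
Left, the share of variance between replicate numbers (x axis, %) and between groups (y axis, %) for each of 78 genes; right, the log2 CPM difference of ds2 samples from samples 2, 3 and 4 (y axis) by transcript length (x axis, nucleotides, log scale). Cox7a2l has the largest share between groups (45.6%), and 68 of 78 genes lie below 0 on the right.

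Single numbers also carried single genes. Sdhd, a membrane anchor of complex II, was at 2.92 to 15.6 CPM in the ds1 samples of 6 groups but at 329 CPM in ds1 of HetWT lymph node Tregs. Ndufa8, a complex I accessory subunit, reached 1202 CPM in ds1 of HetNrp1def lymph node Tregs, where the other 3 samples were at 78.2 to 134 CPM. Per length of transcript the most abundant genes were Cox7b at 888 CPM per kilobase, Ndufa7 at 860 and Uqcrh at 779. Cox7b was at 1367 to 4323 CPM in ds1 samples, 66.1 to 97.7 CPM in ds2 samples and at most 1099 CPM in the others. Its first place thus leans on ds1. The least abundant member was the testis isoform Cox6b2 at 1.09 CPM per kilobase. At group means of at most 16.9 CPM, the muscle isoform Cox6a2 was also low, and it had no count in 4 of 4 HetWT lymph node samples.

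The first question of the design is how Tregs in the tumour differ from Tregs in the lymph node. None of the 78 genes passed edgeR's quasi-likelihood test with Benjamini-Hochberg adjustment (adjusted p under 0.05) in any of 4 tissue comparisons. Over all 14668 tested genes the share called was 0.873% in WT, 0.791% in N, 0.654% in HetNrp1def and 0.239% in HetWT Tregs. At an unadjusted p under 0.05 there were 2 of 78 members in WT, 3 in N, 6 in HetNrp1def and 4 in HetWT Tregs. Here and below, such counts say nothing particular to the members unless the number over all genes stands beside them. DESeq2 called 0 members in WT (3.12% of all genes), 0 in N (2.61%), 2 in HetNrp1def (5.02%) and 1 in HetWT (1.76%). Those were Ndufa8 and Cox7a2l, lower in tumour in HetNrp1def, and Cox6a2 in HetWT. A limma fit of the authors' log2 values called 1 member, Ndufv3 in HetWT (0.166% of all genes). It called 0 in WT (0.0646%), N (3.14%) and HetNrp1def (0.0554%). Those log2 values already have the same mean in every replicate number (largest gap 3.8e-13). The edgeR and DESeq2 fits leave differences between numbers in, so here and below limma calls are not like for like with theirs.

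The median log2 fold change of the 78 genes, tumour against lymph node, was -0.12 in WT Tregs against 0.09 over all genes, and -0.09 against 0.06 in N Tregs. It was -0.09 against -0.10 in HetNrp1def Tregs and -0.02 against -0.17 in HetWT Tregs. The list thus lay below the median gene in WT and N Tregs, at the median gene in HetNrp1def and above it in HetWT. With the other scaling tried (size factors by relative log expression) the all-gene median itself moved by 0.12 in WT Tregs. The median standard error of a member was 0.47 in WT and N, so 2 standard errors of the median member came to 0.93 on the log2 scale.

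By complex the WT medians lay between -0.31 and -0.05, and single genes differed more. In complex I the median was -0.10 over 35 genes, with Ndufb4 lowest (-0.90) and Ndufa8 highest (0.84). Ndufa8 was at 252 ± 169 CPM in tumour Tregs and 141 ± 28.2 CPM in lymph node Tregs, and the tumour mean held 1 ds1 sample at 537 CPM. In complex II the median was -0.21, and Sdha, the flavoprotein that oxidises succinate, was at 188 ± 42.5 CPM in tumour Tregs and 266 ± 114 CPM in lymph node Tregs (SD, n = 5 each, for all of these). Complex III genes lay between -0.50 (Uqcrb) and 0.17 (Uqcrc2). These differences lie inside the spread between replicates.

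Complex IV had a median of -0.05 in WT Tregs. Its nuclear-encoded subunit Cox4i1 was at 522 ± 185 CPM in tumour Tregs and 632 ± 218 CPM in lymph node Tregs (SD, n = 5 each). Complex V stood lowest, with a median of -0.31 and 15 of 17 genes below 0 in WT Tregs, and with 14 of 17 below 0 in N Tregs, where the median was -0.12. The tallies were 11 of 17 in HetNrp1def and 10 of 17 in HetWT. Over all genes 53.7% were above 0 in WT, 52.4% in N, 46.5% in HetNrp1def and 44% in HetWT Tregs. No complex V gene passed the test.

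Atp5h, a subunit of the ATP synthase stalk, was lower in tumour within every replicate number in WT, N and HetNrp1def Tregs. Atp5a1, the alpha subunit of the catalytic head, was so in N and HetWT. It had 413, 409, 398, 355 and 405 CPM in N tumour Tregs (numbers 2, 3, 4, ds1, ds2), against 420, 522, 600.1, 638 and 433 CPM in N lymph node Tregs. In HetWT Tregs it had 431, 412, 400.4 and 414 CPM in tumour (2, 3, 4, ds2), against 450.4, 585, 618 and 473 CPM in lymph node (2, 4, ds1, ds2). Tumour and lymph node samples did not overlap in these genotypes, and the tumour samples were the low ones. The share of all genes that separated in that direction was 1.57% in N and 2.11% in HetWT Tregs. Atp5a1 was the 1 such member in N, and Atp5g2, a gene of the membrane ring of ATP synthase, was the other in HetWT, with a log2 fold change of -1.04 (SE 0.61, edgeR adjusted p = 0.714). The edgeR log2 fold change of Atp5a1 in N Tregs was -0.40 (SE 0.29, adjusted p = 0.764). In HetWT it was -0.36 (SE 0.32, adjusted p = 0.809). In WT Tregs, with 469 ± 95.3 CPM in tumour and 501 ± 111 CPM in lymph node, the groups overlapped. They overlapped in HetNrp1def Tregs too, at 379 to 475 CPM in tumour and 388 to 1481 CPM in lymph node.

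**Figure D3:**
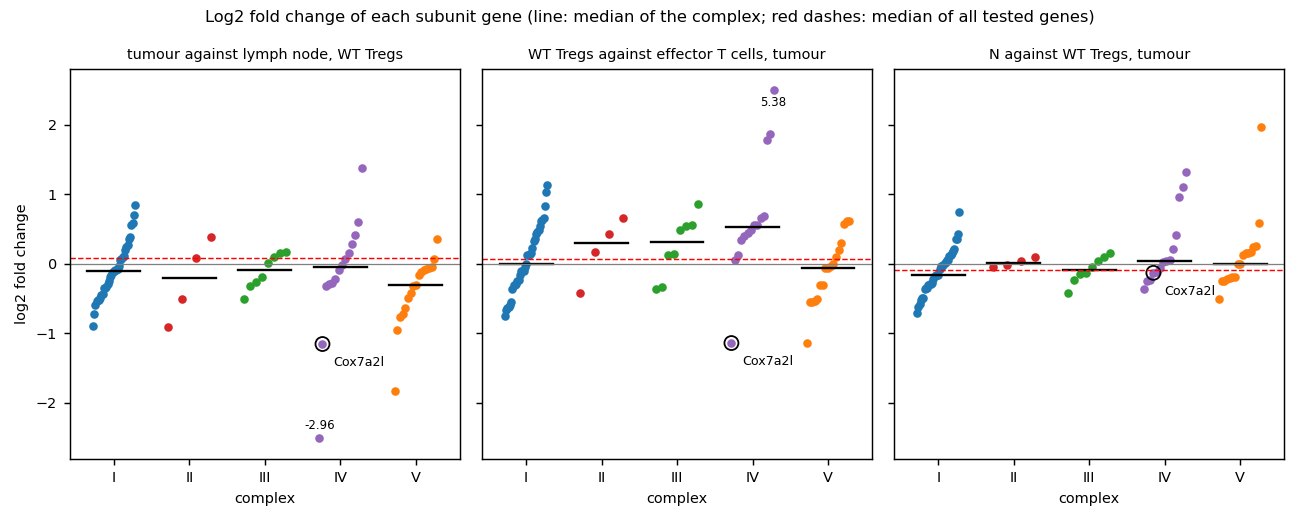
Log2 fold change (y axis) of each of 78 genes by complex (x axis) in the comparisons named above each panel; lines mark the median of a complex, red dashes the median of all tested genes, and values beyond the axis are drawn at its limit with the value printed. Cox7a2l lies at -1.15 in the WT tissue panel and at -1.14 in the panel of WT Tregs against effector T cells.

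Samples of like number can be set side by side, although whether a number marks a pair is not labelled. Within every number, 6 of 78 genes (7.69%) were lower in tumour in WT Tregs and 15 (19.2%) in N Tregs, against 5.19% and 7.19% of all genes. A gene without counts in both samples of a number ties and cannot qualify. Such ties lower the all-gene shares, here and below, which are not shares of equally abundant genes. With 3 numbers to compare, 20 (25.6%) were lower in HetNrp1def against 17% of all genes, and 11 (14.1%) in HetWT against 14.1%. The 15 genes in N included the core complex I gene Ndufs3, Cox4i1 and 4 of ATP synthase (Atp5a1, Atp5g1, Atp5h and Atp5o). The genes higher in every number were fewer, 2 in WT (Ndufs1 and Atp5f1) and 3 in N (Cox5a, Cox6b1 and Cox8a), or 2.56% and 3.85% against 6.95% and 7.97% of all genes. They numbered 6 in HetNrp1def (7.69% against 15.9% of all genes) and 11 in HetWT (14.1% against 12.9%).

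Cox7a2l was the only member lower in tumour within every number compared in all 4 genotypes, as were 157 of 14668 genes (1.07%). No member was higher in all of them, against 1.64% of all genes. In HetNrp1def and HetWT only 2, 4 and ds2 were compared, since tumour ds1 and lymph node 3 were summed with 4. The authors' log2 values hold these libraries apart, with the same mean in every replicate number (largest gap 3.8e-13). There, ds1 Cox7a2l was higher in tumour in HetWT (8.74 against 7.11) and lower in HetNrp1def (8.68 against 9.03). Number 3 was lower in tumour in both. The tumour ds1 and lymph node 3 values are not further samples beside number 4. HetNrp1def tumour ds1 was at 8.68 and its summed partner 4 at 8.18, and those of HetWT at 8.74 and 8.18. The gene lies on the minus strand of chromosome 17 at 83501918 to 83517330 (mm10, GENCODE vM21) and overlaps no other annotated gene. Its protein resembles Cox7a2, a complex IV subunit. Cox7a2l had 299, 287, 248, 315 and 174 CPM in N tumour Tregs (2, 3, 4, ds1, ds2), against 586, 586, 425, 871 and 307 CPM in N lymph node Tregs. It had 312, 295, 388, 273 and 179 CPM in WT tumour Tregs, against 560.4, 1238, 575, 580 and 263 CPM in WT lymph node Tregs. Every tumour value was below its partner of the same number, but the groups overlapped because ds2 of the lymph node was low as well.

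HetNrp1def Tregs had 268, 389, 283 and 189 CPM of Cox7a2l in tumour (2, 3, 4, ds2), against 788, 702, 778 and 288 CPM in lymph node (2, 4, ds1, ds2). HetWT Tregs had 375, 382, 314 and 154 CPM in tumour, against 532, 699.7, 115 and 270.4 CPM in lymph node. In HetWT the ds1 lymph node sample was the lowest of its group. The 2 sets did not separate in either genotype, since lymph node ds2 lay within the tumour range and, in HetWT, lymph node ds1 lay below it.

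In edgeR the tissue log2 fold change of Cox7a2l was -1.15 in WT (SE 0.38, adjusted p = 0.160), -1.07 in N (SE 0.38, adjusted p = 0.232), -1.18 in HetNrp1def (SE 0.43, adjusted p = 0.226) and -0.40 in HetWT (SE 0.42, adjusted p = 0.834). None passed in this fit, which holds no term for the replicate number. Fits with such a term are given in the closing section. With samples 2, 3 and 4 alone Cox7a2l passed in WT (-1.17, adjusted p = 0.00616) and HetNrp1def (-1.25, adjusted p = 0.0133) but not in N (-0.92, adjusted p = 0.0615) or HetWT (-0.81, adjusted p = 0.221). Those fits called 2.45% of all genes in WT, 0.9% in HetNrp1def, 1.22% in N and 0.744% in HetWT. The difference between the tissue effects of HetNrp1def and HetWT, tested as an interaction, was -0.78 (SE 0.60, adjusted p = 1.0), and that of N and WT was 0.09 (SE 0.53, adjusted p = 1.0). In HetWT the value ran from -0.67 without lymph node ds1 to 0.038 without lymph node 4.

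**Figure D4:**
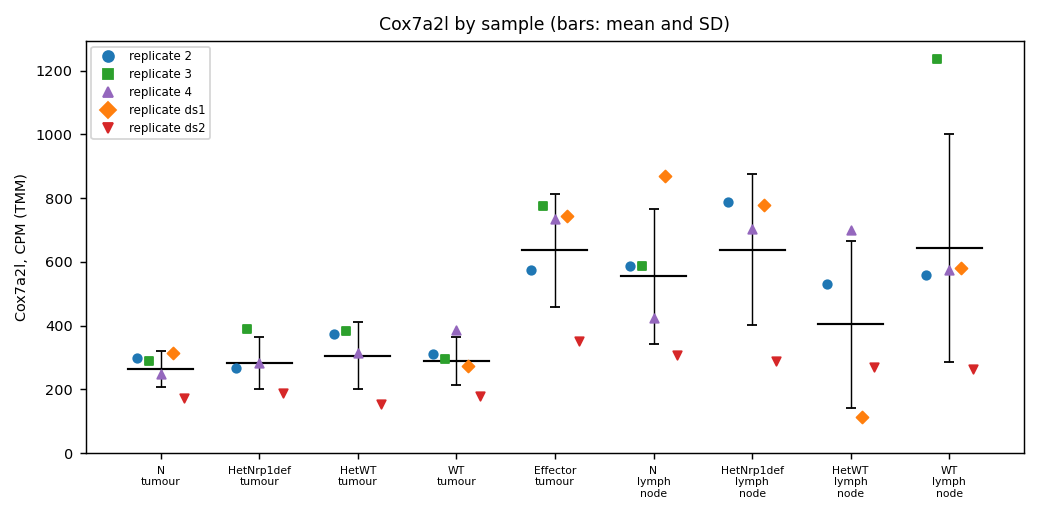
Cox7a2l in CPM (y axis) in each of 41 samples by group (x axis), symbols marking the replicate number and bars the mean and SD. Tumour Tregs lie between 154 and 389 CPM, effector T cells between 352 and 776 CPM.

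In tumours, effector T cells form the other comparison of cell types. Cox7a2l was the 1 respiratory gene that passed: it was lower in N tumour Tregs than in effector T cells. Over all genes 5.16% passed, and 1.39% in that direction. Effector T cells had 576, 776, 736, 746 and 352 CPM (2, 3, 4, ds1, ds2), and no N tumour sample, at most 315 CPM, reached the lowest of them. Groups that do not overlap with the first lower were 3.03% of genes. Means were 264.8 ± 56.3 CPM in N tumour Tregs and 637 ± 177 CPM in effector T cells (SD, n = 5 each), and the edgeR log2 fold change was -1.27 (SE 0.38, adjusted p = 0.0360). DESeq2 also called Cox7a2l and no other member (9.39% of all genes), while limma called 1 member, Uqcr11, higher in Tregs (5.31%).

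The WT comparison with effector T cells gave nearly the same size, at 289.4 ± 75.3 CPM in WT tumour Tregs and 637 ± 177 CPM in effector T cells. Its log2 fold change in edgeR was -1.14 (SE 0.38, adjusted p = 0.0664), so it did not pass, nor did any other member, where 5.71% of all genes did. Unadjusted p were under 0.05 for 3 of 78 members, and DESeq2 (10.4% of all genes) and limma (0.535%) called 0. Both comparisons use the same effector samples. The N call was lost with relative log expression scaling (adjusted p = 0.0641), with no filter on low counts (0.0676), and on leaving out any 1 of 7 of the 10 samples (edgeR adjusted p from 0.0557 to 0.105). Those were N tumour 3, 4 and ds2 and effector 2, 3, 4 and ds1.

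Other cell types were visible beside Cox7a2l. The 7 melanoma markers, none of them without counts in any tumour group, summed to 32.7, 7.65, 28.3, 4.61 and 673 CPM in N tumour Tregs (2, 3, 4, ds1, ds2) and to 3.28 to 77.4 CPM in effector T cells. They summed to 13.7 to 1763 CPM in HetNrp1def and 23.0 to 2051 CPM in HetWT tumour Tregs. In WT tumour Tregs they summed to 1193, 1430, 3534, 16.0 and 6.58 CPM, and Cox7a2l in the samples with 16.0 and 6.58 CPM was at 273 and 179 CPM. Lymph node Tregs had at most 72.2 CPM, with Mlana at 0 in WT and Tyrp1 at 0 in HetNrp1def. The 4 B cell markers summed to 1.74 to 618 CPM in lymph node Tregs and 2.38 to 39.7 CPM in tumour Tregs. The 3 dendritic markers summed to 3.18 to 34.0 CPM in N and 4.03 to 131 CPM in WT tumour Tregs, against 0 to 6.37 CPM in effector T cells and 0 to 10.0 CPM in WT lymph node Tregs. The 3 endothelial markers summed to 36.3 to 132 CPM in N and 6.61 to 69.2 CPM in WT tumour Tregs, against 80.7 to 227 CPM in effector T cells and 35.6 to 199 CPM in WT lymph node Tregs. Of these lists, Xcr1 was higher by edgeR in WT Tregs against effector T cells (log2 fold change 6.75, adjusted p = 0.00614) and against lymph node (6.47, adjusted p = 0.0347) and in N Tregs against effector T cells (5.46, adjusted p = 0.0262). Pecam1 was lower in WT Tregs against effector T cells (log2 fold change -2.69, edgeR adjusted p = 0.00563). The part of any of these cell types in the Cox7a2l level was not tested. In sorted bulk samples fewer cells of a type and less RNA per cell cannot be told apart.

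Cox7a2l was set apart from its paralog. Cox7a2 was at 267 ± 183 CPM in N tumour Tregs, 258 ± 116 CPM in WT tumour Tregs and 163 ± 44.5 CPM in effector T cells (SD, n = 5 each). WT lymph node Tregs had 210.4 ± 116 CPM. These ranges overlap, and Cox7a2 passed no test. How reads shared by paralogs were counted is not given in the sources used here. Among the 78 genes Cox7a2l had the largest share of variance between groups (45.6%, against 28% between numbers), followed by Cox6b2 (39.7%) and Cox5a (33.6%).

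Promoter sequence was read for the members matched in RefSeq (GRCm38.p6), 66 of 78, as the 250 bases before the start. Cox7a2l is shown because the result turns on it, and Cox6a1, a complex IV member, because it holds motifs of NRF1 and GABPA, known activators of respiratory genes. The Cox7a2l window is at chr17:83514334-83514583 and the Cox6a1 window at chr5:115348959-115349208, both on the minus strand. RefSeq starts Cox7a2l directly after its window, while the wider span given above comes from 1 longer GENCODE transcript, in whose intron the window lies. Bases before that further start were not searched. Capitals mark matches, on either strand, to the NRF1 letters (GCGCA, then any base, then GCGC) or to the GABPA letters CCGGAAG.
Cox7a2l: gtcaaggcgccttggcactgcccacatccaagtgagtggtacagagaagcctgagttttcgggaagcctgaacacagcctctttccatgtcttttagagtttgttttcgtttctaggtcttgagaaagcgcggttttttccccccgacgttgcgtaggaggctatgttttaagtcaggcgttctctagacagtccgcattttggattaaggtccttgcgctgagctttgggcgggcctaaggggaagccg
Cox6a1: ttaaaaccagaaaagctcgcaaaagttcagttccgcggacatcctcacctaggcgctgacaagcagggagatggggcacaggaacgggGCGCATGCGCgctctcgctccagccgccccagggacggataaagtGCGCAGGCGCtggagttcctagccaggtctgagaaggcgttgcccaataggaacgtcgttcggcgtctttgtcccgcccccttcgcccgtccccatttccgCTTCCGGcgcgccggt

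The window before the RefSeq start of Cox7a2l held neither motif. The NRF1 letters were in 11 of 66 members (16.7%) and in 3.86% of the 27025 genes with a promoter, and CCGGAAG was in 11 of 66 (16.7%) against 7.05%. TCAAGGTCA, a site of the receptor ERRalpha, was in 1 of 66 (1.52%) against 0.366%, while AAGATGGC (YY1) was in 0 of 66 against 1.59%. CCAAT was in 30 (45.5%) against 34.5%, ACGTG, the hypoxia response letters, in 15 (22.7%) against 16.6%, and TATAAA in 5 (7.58%) against 13.0%. These counts describe letters in the windows on both strands and were not tested.

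Most genes of complex IV other than Cox7a2l had a fold change above 0 against effector T cells. The summed level of the complex, Cox7a2l included, did not separate the cell types. The median log2 fold change of its 14 genes was 0.53 for WT tumour Tregs over effector T cells, with 13 of 14 above 0, and 0.57 for N tumour Tregs, with 12 above 0. Over all genes 52.5% were above 0 in WT and 47% in N. Without Cox6a2, 12 of 13 were above 0 in WT with a median of 0.49, and 11 of 13 in N with a median of 0.55. Cox6b2 and Cox7a1 stay in these tallies although no effector sample held more than 2 and 9 counts of them, respectively. Summed over complex IV, N tumour Tregs had 3415, 3166, 3809, 7005 and 2008 CPM (2, 3, 4, ds1, ds2) and WT tumour Tregs had 3776, 3164, 4321, 6742 and 1693 CPM, against 3274, 3613, 3648, 4432 and 1969 CPM in effector T cells. WT Tregs were below effector T cells in number 3 and ds2, and N Tregs in number 3. In number 3 these sums held Cox7a2l at 295 CPM in WT Tregs, 287 CPM in N Tregs and 776 CPM in effector T cells. Complex I stood at 0.00 in WT and -0.06 in N, and complex V at -0.06 in WT and -0.09 in N. Over all 78 genes it was 0.14 against 0.07 for all genes in WT, and 0.05 against -0.09 in N. Cox5a was at 188 ± 29.8 CPM in WT tumour Tregs and 127 ± 32.1 CPM in effector T cells, and Cox8a at 196 ± 49.7 CPM in WT tumour Tregs and 139 ± 68.9 CPM in effector T cells (SD, n = 5 each). Neither passed, and Cox6a2, with 0.324 CPM in 1 of 5 effector samples and 0 in the rest, gives no usable fold.

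The largest difference of complex I was Ndufb9, an accessory subunit of its membrane arm. It had 245, 214, 316, 257 and 129 CPM in WT tumour Tregs (2, 3, 4, ds1, ds2), against 119, 150.5, 146, 17.2 and 96.1 CPM in effector T cells. Within each number the Treg sample was the higher, but its ds2 sample lay inside the effector range. The edgeR log2 fold change was 1.13 (SE 0.49, adjusted p = 0.194). Uqcr11, a small subunit of complex III, had 345, 270.5, 409, 368 and 77 CPM in WT tumour Tregs, against 200.1, 124, 229, 180.4 and 71.5 CPM in effector T cells, with a log2 fold change of 0.87 (SE 0.49, edgeR adjusted p = 0.373). Of the 78 genes, 13 (16.7%) were higher in WT Tregs than in effector T cells within every number, against 10.8% of all genes, and 6 were lower against 8.97%. In N Tregs 10 were higher against 11% of all genes and 7 lower against 9.76%.

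With samples 2, 3 and 4 alone, 6 members passed in the WT comparison with effector T cells, against 8.4% of all genes. Ndufb7, Ndufb8, Ndufb9, Uqcr11 and Cox5b were higher in Tregs and Cox7a2l was lower. In N Tregs 2 passed, Ndufb8 higher and Cox7a2l lower, against 7.43% of all genes.

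The share of reads on the 78 genes differed more plainly between the cell types. Within every replicate number effector T cells had the lowest share of the 9 libraries. Shares were 1.98% to 2.17% in the Treg libraries numbered 2, against 1.75% in effector T cells, and 1.93% to 2.36% against 1.81% in those numbered 3. They were 2.05% to 2.29% in Tregs against 1.82% in effector T cells in number 4, 1.77% to 2.11% against 1.58% in ds1, and 1.23% to 1.32% against 1.16% in ds2. Group means were 1.94% ± 0.41 in WT tumour Tregs and 1.62% ± 0.28 in effector T cells (SD, n = 5 libraries each). The summed CPM after TMM did not keep that order, since in number 3 WT tumour Tregs were at 17606 CPM and effector T cells at 18955 CPM.

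**Figure D5:**
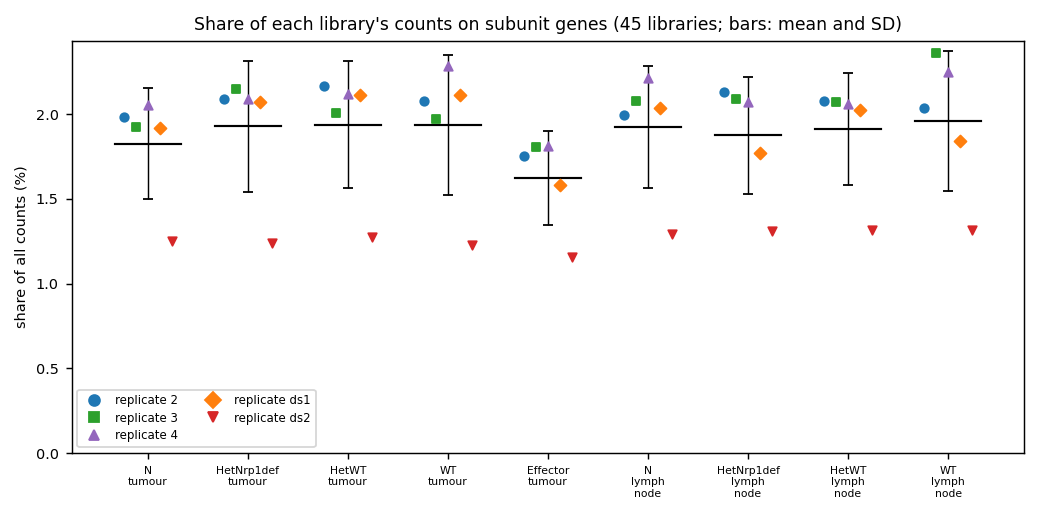
Share of each library's counts on the 78 genes (y axis, %) in the 45 libraries by group (x axis), symbols marking the replicate number and bars the mean and SD. For each symbol the effector T cell library is the lowest, at 1.16% to 1.82%.

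The remaining question is whether loss of Nrp1 changes these genes in Tregs. In N against WT tumour Tregs no member passed, and neither did any of 14668 genes (0%). No member had an unadjusted p under 0.05, against 376 of all genes, and DESeq2 (0.0205% of genes) and limma (0.138%) called 0 members. The median log2 fold change was -0.03 over the 78 genes and -0.08 over all. Standard errors of members ran from 0.29 to 2.09 with a median of 0.47, so the size of change that could be told from the spread differed widely between genes.

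Values of the subunits named next overlapped between N and WT. Atp5b, the catalytic beta subunit of ATP synthase, was at 849 ± 346 CPM in N tumour Tregs and 972 ± 363 CPM in WT tumour Tregs. Sdha was at 194 ± 14.4 CPM in N and 188 ± 42.5 CPM in WT (SD, n = 5 each). Cox4i1 was at 406 ± 82.0 CPM in N and 522 ± 185 CPM in WT. In complex I the range ran from Ndufa8 (-0.70) to Ndufa10 (0.74), and Atp5s had the largest difference of complex V (1.97, SE 1.06, edgeR adjusted p = 1.0). Atp5s in N tumour Tregs was at 13.4 to 18.9 CPM in 4 samples and 103 CPM in ds1, so ds1 set that value.

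HetNrp1def and HetWT Tregs are both labelled as heterozygous. In tumour no member passed between them (0% of all genes), 0 had an unadjusted p under 0.05 and DESeq2 (0.0545%) and limma (0%) called 0. Atp5sl was at 19.1, 23.8, 20.1 and 32.5 CPM in HetNrp1def (2, 3, 4, ds2), against 8.24, 16.0, 18.3 and 9.87 CPM in HetWT. It was the 1 member without overlap, as were 1.49% of all genes in either direction. HetNrp1def and HetWT against WT in tumour also gave 0 members by edgeR, by an unadjusted p under 0.05, by limma (0% of genes each) and by DESeq2 (0.0409% and 0.13%).

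In the lymph node the 4 genotype comparisons gave 0 called members (0% of all genes in each) by edgeR. Unadjusted p under 0.05 held for 1 member in N against WT, 6 in HetNrp1def against HetWT, 3 in HetNrp1def against WT and 3 in HetWT against WT. DESeq2 called 0 in N against WT (0.13% of genes), Cox6a2 in HetNrp1def against HetWT (1.64%), Ndufa8 in HetNrp1def against WT (1.4%) and Cox6a2 in HetWT against WT (0.205%). Limma called 0 members in each, and 0.00923% of genes in HetWT against WT. Ndufa8 in HetNrp1def rested on the ds1 sample at 1202 CPM. The tissue difference of N against that of WT and of HetNrp1def against that of HetWT also gave 0 called members (0% of genes). Median log2 values were 0.13 against 0.00 over all genes and -0.08 against 0.05, and 1 and 4 members had an unadjusted p under 0.05. DESeq2 called 0 members in the first (0.0682% of genes) and 1, Cox6a2, in the second (0.191%), and limma 0. For these interactions 2 standard errors came to a median of 1.32 and 1.47.

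Genes around the chain were read from lists of assembly factors (39 tested), the tricarboxylic acid cycle (17), electron carriers (12), import (22), mitochondrial ribosomal proteins (76) and regulators of mitochondrial biogenesis (17). In the 16 comparisons none of them passed except in the regulators against effector T cells. Pprc1, a coactivator of the PGC-1 family, was lower in WT tumour Tregs (log2 fold change -2.51, SE 0.77, edgeR adjusted p = 0.0362) and in N tumour Tregs (-2.78, SE 0.77, edgeR adjusted p = 0.0186). Polrmt, the mitochondrial RNA polymerase, was lower in WT tumour Tregs (-3.12, SE 0.97, edgeR adjusted p = 0.0400). One effector sample, ds1, held 346 CPM of Pprc1 against 20.5 to 48.1 CPM in the other 4, and 196 CPM of Polrmt against 12.7 to 42.0 CPM. Without it neither passed. Pprc1 was at -1.02 in WT (adjusted p = 0.479) and -1.29 in N (adjusted p = 0.391), and Polrmt at -1.92 (edgeR adjusted p = 0.263). Leaving out single samples in turn ended the WT call of Pprc1 in 6 of 10 cases, that of Polrmt in 8 and the N call of Pprc1 in 3.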

How the data were processed

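Per the submitters' processing notes, the authors used STAR, featureCounts and mm10 to make the deposited read counts per gene symbol. The authors also deposited normalized log2 values for 10832 genes (76 of the 78), with limma named in those notes. Means of the replicate numbers are equal in these values (largest gap 3.8e-13), and the limma fit here did not allow for that adjustment. The sources used here give no versions, strand setting or rule for shared reads. Of the 78 genes, 36 overlap another annotated gene. Per the labels' protocols, a SMARTer ultra-low-input kit, Nextera XT and a NextSeq 500 were used.

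The members and lists were chosen with earlier results of these data known. Genes were tested with edgeR 4.0.16 (R 4.3.3): library pairs with a chi-square per degree of freedom under 5 summed, TMM, filterByExpr by group, 1 robust quasi-likelihood fit of 9 groups (41 samples, 32 residual degrees of freedom), no covariate, Benjamini-Hochberg adjustment over 14668 genes and a threshold of 0.05. Standard errors are the log2 fold change over the root of F. The test was checked on simulated counts that held no difference between replicate numbers, so that check does not cover the spread between numbers found here. Named genes were members called, core subunits and Cox4i1, isoforms and the extremes of each complex. Others were chosen after their values were seen. Alternatives used DESeq2 1.42.0, limma 3.58.1, other scalings, filters and sample sets. Figures used matplotlib 3.10.9.

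Same-numbered samples deviated together in every pair (r over 0.1) in HetNrp1def against HetWT (lowest r 0.153) and against WT (0.105) in the lymph node, 4 pairs each, a pairing read from the values. A replicate block changed no member call there. Of 45 columns of log2 values, 44 correlated best with their own counts. The WT tumour ds2 column did not (r 0.274), so limma values of WT tumour comparisons rest partly on a column that does not follow its counts.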

Additional observations from a re-analysis of the deposited data

Results flagged for a closer look

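In 90 groups of 4 or 5 values (summed levels per complex and named genes), 7 had a sample whose gap to the nearest other exceeded Dixon's 95% limit for its group; chance gives about 5% of groups. In N tumour Tregs the complex I sum of ds2 was the lowest at 3390 CPM, with the next at 6811 CPM. In HetNrp1def tumour Tregs ds2 was lowest for complex I (3424 CPM, next 7615 CPM), complex III (1505 CPM, next 2009 CPM) and all members (10875 CPM, next 18842 CPM). Uqcr11 there was 75 CPM in ds2, with the next at 270.7 CPM. Atp5a1 was lowest in N tumour Tregs ds1 at 354.6 CPM, with the next at 397.9 CPM, and highest in HetNrp1def lymph node Tregs ds1 at 1481 CPM, with the next at 497 CPM.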

How the results depend on the processing

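In WT Tregs, tumour against lymph node, 0 members were called, against 2 with a replicate block (Cox7a2l and Atp5h lower) and 2 with samples 2, 3 and 4 only. In N Tregs the replicate block called 1. In HetNrp1def Tregs DESeq2 called 2, the replicate block 1 and samples 2, 3 and 4 only 1. In HetWT Tregs DESeq2 and limma called 1 each. WT Tregs against effector T cells gave 0, against 1 with the 45 libraries, with only the compared groups or with sorting in the model, 2 with the replicate block, 6 with samples 2, 3 and 4 only, and 0 to 1 on leaving out a replicate. N Tregs against effector T cells gave 1, against 0 with relative log expression scaling or no filter, 2 with samples 2, 3 and 4 only, and 0 to 1 on leaving out a replicate. DESeq2 called 1 in HetNrp1def against HetWT, HetNrp1def against WT and HetWT against WT in the lymph node, and 1 in the tissue difference of HetNrp1def against HetWT. The cause was not tested.

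With the replicate block, the Cox7a2l tissue fold change was -1.06 in WT (edgeR adjusted p = 0.0206), -1.05 in N (0.0255), -1.20 in HetNrp1def (0.0376) and -0.52 in HetWT (0.630); against effector T cells it was -1.12 in WT (0.00477) and -1.23 in N (0.0016). In these comparisons same-numbered samples did not deviate together in every pair, and no label gives a pairing, so the block is a hint from the data. Signs turned in Cox7a2l of HetWT (-0.67 to 0.038 on leaving out a replicate), Sdhd of the WT tissue comparison (-0.021 with limma), Uqcrfs1 of WT Tregs against effector T cells (0.088 with samples 2, 3 and 4 only; -0.54 to 0.019 on leaving out a replicate) and Ndufa10 of N against WT (-0.052 with samples 2, 3 and 4 only). Of 356 counts of called members 328 equalled the main count or stayed within 1.5 times of it. The main count was 0 in every comparison but N Tregs against effector T cells, so elsewhere an unchanged count is 0 again. Of 590 single-gene values, 522 kept direction and side. Leaving out ds2 and using CPM without TMM were added after seeing the data. Precision was limited: 2 standard errors of the median member came to 0.93 between groups of 5 and 1.04 between groups of 4 in the tumour, on the log2 scale.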
